A study of Rattus norvegicus with 4 samples.

Results

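Smooth muscle contractile genes encode the actins, the myosin and the regulatory and filament proteins with which smooth muscle shortens. The list held 10 genes (Actg2, Acta2, Myh11, Des, Cnn1, Tagln, Mylk, Lmod1, Smtn and Synm), measured by 16 of the 30367 gene probes on the array, which stand for 26482 genes or unnamed transcripts. A probe was taken as a member when the symbol that the authors' tables give for it, or else the accession that it was designed on, named one of these genes. The members were chosen by their role in contraction with the FeD and FeO log2 ratios of these arrays already known, so the ratios are given as a description and were not tested.

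Pancreas RNA came from male Sprague-Dawley rats fed for 3 weeks on an iron-deficient diet with 5 ppm iron (FeD), an iron-adequate diet with 35 ppm (FeA) or an iron-overloaded diet with 20275 ppm (FeO), per the labels. RNA of 6 rats was combined into 1 pool per diet. The FeD pool was hybridised with the FeA pool on arrays 1 and 2, and the FeO pool with the same FeA pool on arrays 3 and 4. On arrays 1 and 3 the FeD or FeO pool was labelled with Cy5 and the FeA pool with Cy3, and on arrays 2 and 4 the dyes were exchanged. A comparison's arrays carry identical pools and count as 1 replicate, so their spread is technical, variation among rats was not measured and no test of the diets was possible. All 4 arrays lay on 1 slide. Both comparisons share the FeA pool. Whole pancreas was used, and in such bulk RNA fewer smooth muscle cells and less RNA per cell cannot be told apart.

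Smooth muscle contracts when calcium and calmodulin activate myosin light chain kinase, which phosphorylates the regulatory light chain of myosin and lets it pull on actin filaments. Blood vessels are rich in the alpha actin encoded by Acta2, whereas the muscle layers of hollow organs such as the gut and the bladder are rich in the gamma actin encoded by Actg2. In the pancreas, smooth muscle is found in vessel walls and around the larger ducts, and activated stellate cells also carry the alpha actin. Many of these genes are controlled by serum response factor and myocardin, which act through the CArG box.

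The promoters of the paired smooth muscle actins are shown because these genes lay farthest apart within the list in the FeD pool. Each sequence holds the 250 bases before the RefSeq start in build GRCr8, and capitals mark CArG-like matches.
Actg2, chr4:117594040-117594289, minus strand: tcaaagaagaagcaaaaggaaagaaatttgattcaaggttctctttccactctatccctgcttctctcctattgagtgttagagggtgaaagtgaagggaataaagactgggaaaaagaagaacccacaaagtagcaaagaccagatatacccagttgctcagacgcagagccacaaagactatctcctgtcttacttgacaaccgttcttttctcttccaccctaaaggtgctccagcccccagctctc
Acta2, chr1:241172504-241172753, minus strand: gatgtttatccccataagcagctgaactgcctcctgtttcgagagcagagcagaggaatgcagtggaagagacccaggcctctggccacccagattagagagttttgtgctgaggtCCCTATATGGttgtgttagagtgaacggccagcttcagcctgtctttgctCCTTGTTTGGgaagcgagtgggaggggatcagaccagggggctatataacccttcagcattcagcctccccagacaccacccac
RefSeq promoter windows were held for 7 members (Actg2, Acta2, Des, Cnn1, Mylk, Smtn and Synm). The CArG box, 10 letters of CC, then A or T only, then GG, was searched on both strands and had 0 matches in these 7 windows, against 1.5% of 33469 rat promoters of the same length. A CArG-like form with 1 C or G allowed in the core was added after that result. It matched 1 of the 7 windows, Acta2, against 6.84% of all promoters. The Acta2 matches were CCCTATATGG at 134 to 125 bases and CCTTGTTTGG at 84 to 75 bases before the start. The E box, CANNTG, was present in 5 of 7 windows and in 65.5% of all promoters, and the GC box, GGGCGG, in 2 of 7 and in 30.5%. These matches describe letters and not binding.

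A ratio is given on the log2 scale as FeD or FeO over FeA, after normexp background correction, loess normalization within each array and turning of the dye-swapped array. A probe entered a comparison when it was well above background, by the scanner software's criterion, on both arrays in at least 1 of the pools. By this filter 13 of the 16 member probes passed in FeD and 14 in FeO, and 9 of the 10 genes had a value in each. Lmod1, leiomodin 1, a protein that starts actin filaments, was not well above background with either probe in any of the 8 channels. No member spot was saturated or marked as an outlier. A gene with more than 1 probe is given by their mean. A gene was called lower or higher when its mean ratio was at least 1 in size, a 2-fold difference, with the same sign on both arrays.

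In the FeD pool, all 9 measured contractile genes had a mean ratio below 0, from -1.41 for Actg2 to -0.02 for Acta2, with a median of -0.42. The median of all 15728 genes was 0.01. The member median was -0.64 on array 1 and -0.11 on array 2, and without Actg2 the mean of both gave -0.35. Ratios lay below 0 on both arrays for 7 of 9 members (Actg2, Myh11, Cnn1, Tagln, Mylk, Smtn and Synm), where 21.7% of all genes did so. For Smtn this held for the mean of its probes and for neither probe alone. None lay above 0 on both, against 25.2% of all genes, and Acta2 and Des had opposite signs, against 53.1%. Actg2 was the 1 member called lower, and 0.242% of all genes were called lower and 0.356% in either direction. At a mean of -0.5 or less, 3 members were lower (Actg2, Mylk and Myh11), where 0.935% of all genes were.

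In the FeO pool, the member median was -0.01, and the median of all 16423 genes was 0.01. On array 3 the member median was -0.21 and on array 4 it was 0.24. Means lay below 0 for 5 members and above 0 for 4. Ratios were below 0 on both arrays for 3 members (Actg2, Mylk and Synm), against 24.1% of all genes, and had opposite signs for the other 6, against 47.8%. The ratios of Synm lay close to 0, and its probes had opposite signs. None lay above 0 on both arrays, against 28.1% of all genes. No member was called, whereas 0.469% of all genes were called lower, 0.615% higher and 1.08% in either direction. At a mean of -0.5 or less 1 member was lower (Actg2), where 1.99% of all genes were.

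**Figure D1:**
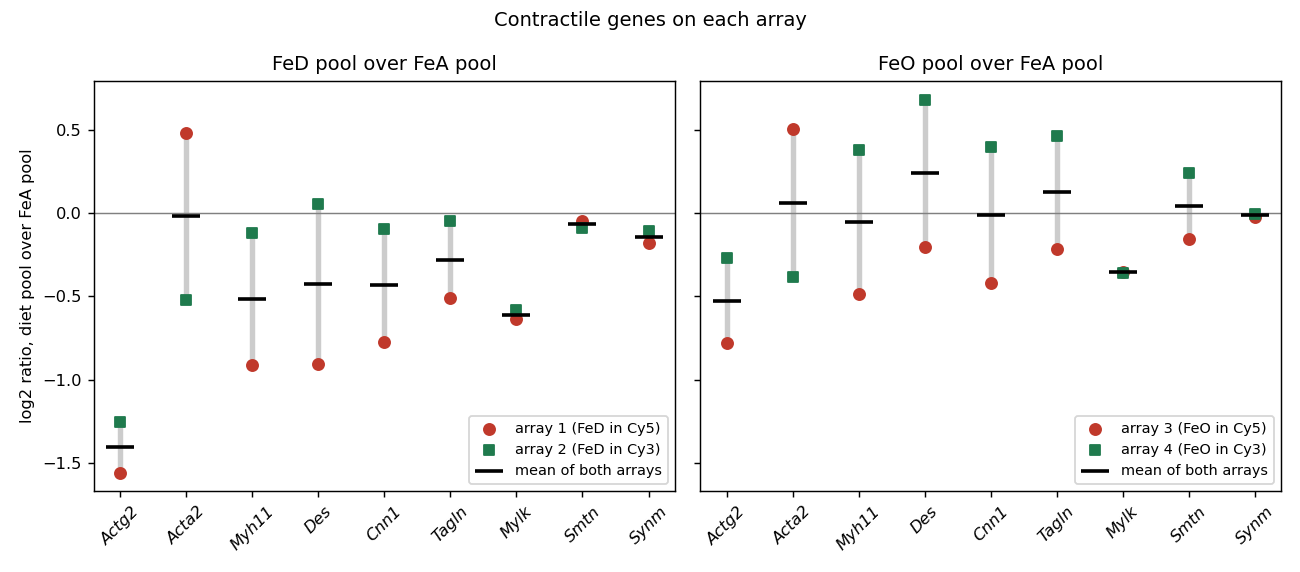
Log2 ratio of the FeD pool (left) or the FeO pool (right) over the FeA pool for the 9 measured contractile genes, with a circle for the array that carried the diet pool in Cy5, a square for the dye-swapped array and a bar for their mean. Actg2 lies lowest in FeD on both arrays, the symbols of Mylk nearly coincide, and those of Acta2, Myh11, Des, Cnn1 and Tagln are far apart.

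Actg2, the enteric gamma actin, was measured by probes A_64_P031691 (probe 1) and A_64_P071495 (probe 2), both well above background in every channel. In the FeD pool probe 1 gave ratios of -1.64 and -1.24 on arrays 1 and 2, and probe 2 gave -1.47 and -1.26. In the FeO pool the ratios on arrays 3 and 4 were -0.81 and -0.28 for probe 1 and -0.75 and -0.26 for probe 2. All 8 ratios were below 0, and the probes lay closer to each other than the arrays did. Averaged over probes, Actg2 had -1.41 in FeD, each array lying 0.15 from this mean, which is 2.65-fold lower than in FeA. Its rank was 19 from the lowest of 15728 genes, and 0.114% of genes had a lower ratio. In FeO the mean was -0.53, each array lying 0.25 from it, or 1.44-fold lower, and 1.81% of genes had a lower ratio.

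The channel levels of Actg2, on the log2 scale after loess and Aquantile normalization, show the same order in each dye. Probe 1 had 12.39, 12.19, 12.46 and 12.09 in the FeA pool on arrays 1 to 4, 10.74 and 10.95 in the FeD pool, and 11.65 and 11.80 in the FeO pool. Every FeD and FeO level was below the lowest FeA level, and the FeD levels were below the FeO levels. Probe 2 had 11.94, 11.69, 11.94 and 11.58 in FeA, 10.47 and 10.43 in FeD, and 11.19 and 11.32 in FeO. The pools did not overlap with this probe either.

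Acta2, the vascular alpha actin and also a marker of activated stellate cells, behaved otherwise. Its single probe gave 0.48 on array 1 and -0.52 on array 2, with a mean of -0.02, and 0.50 on array 3 and -0.38 on array 4, with a mean of 0.06. In both comparisons the diet pool was the higher one where it was labelled with Cy5 and the lower one where it was labelled with Cy3. Its levels in FeA were 9.32 and 9.16 in Cy3 and 9.72 and 10.04 in Cy5, which encloses the FeD levels of 9.80 and 9.20 and the FeO levels of 9.67 and 9.66. No difference of Acta2 between the pools was larger than the spread between arrays, of 0.50 either side of the mean in FeD and 0.44 in FeO.

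**Figure D2:**
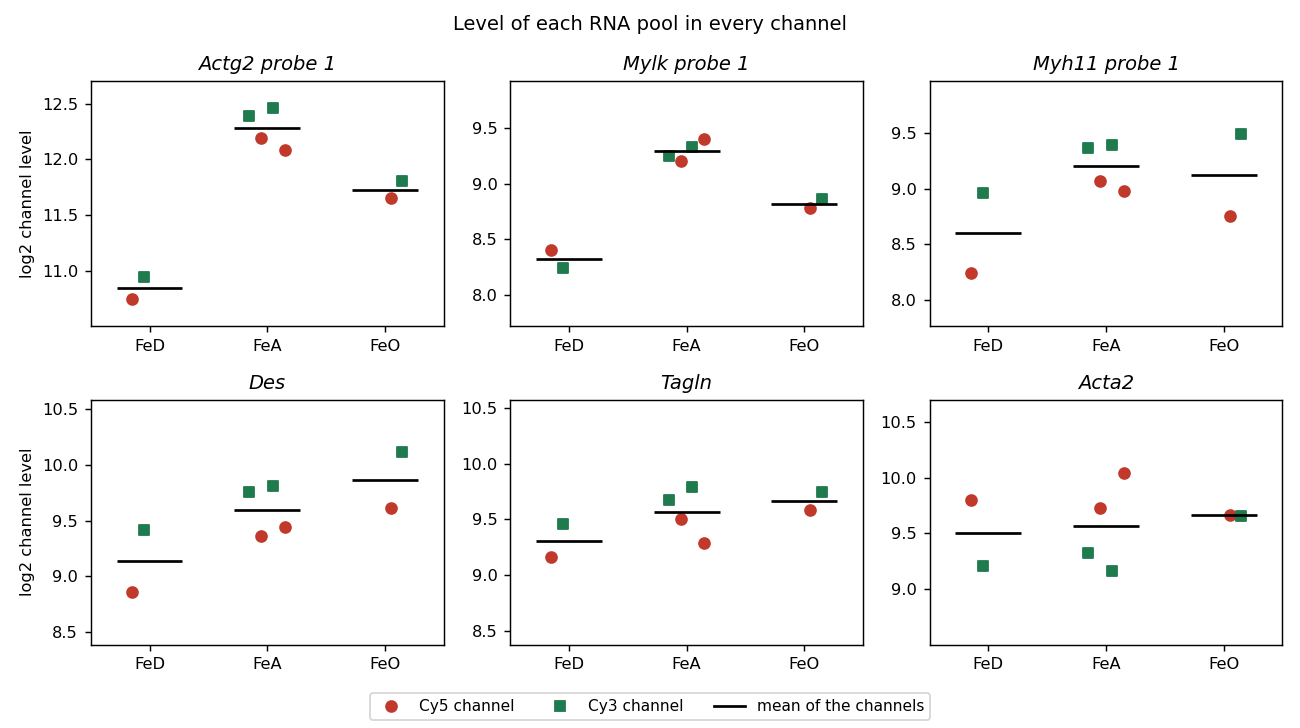
Log2 channel level of 6 member probes in the FeD, FeA and FeO pools, with circles for Cy5, squares for Cy3 and a bar for the mean of the channels; every panel spans the same number of log2 units, and levels of different probes are not comparable. The pools are separated for Actg2 and Mylk probe 1, whereas for Des, Tagln and Acta2 the FeA channels overlap the FeD channels.

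Myh11 encodes the smooth muscle myosin heavy chain, the motor of the thick filament. Its probe 1 gave -1.13 and -0.11 in FeD and -0.64 and 0.52 in FeO, and its probe 2 gave -0.70 and -0.14 in FeD and -0.34 and 0.25 in FeO. The gene mean was -0.52 in FeD, 1.43-fold lower, each array lying 0.39 from it, and 0.865% of genes had a lower ratio. In FeO the mean was -0.05, with each array 0.43 from it and of opposite sign. Probe 1 levels in FeA were 9.37, 9.07, 9.39 and 8.98 on arrays 1 to 4, those in FeD 8.24 and 8.96, and those in FeO 8.76 and 9.49. The higher FeD level, 8.96, lay just under the lowest FeA level, 8.98, and the FeO levels lay on both sides of all FeA levels.

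Mylk encodes the kinase that starts contraction. It differed little between dye-swapped arrays, as its ratios were -0.64 and -0.58 in FeD and -0.35 and -0.36 in FeO. The mean was -0.61 in FeD, 1.53-fold lower, each array lying 0.03 from it, and 0.61% of genes had a lower ratio. The mean in FeO was -0.36, 1.28-fold lower, and 4.1% of genes had a lower ratio. Its probes differed in size and not in sign. Probe 1, A_64_P154922, gave -0.84 and -0.96 in FeD and -0.55 and -0.54 in FeO, whereas probe 2, A_64_P154927, gave -0.44 and -0.21 in FeD and -0.15 and -0.18 in FeO. Probe 2 was the dimmer one, with uncorrected median signals of 97 to 175 intensity units against 217 to 829 for probe 1. The levels of probe 1 were 9.25, 9.20, 9.33 and 9.40 in FeA, 8.41 and 8.24 in FeD, and 8.78 and 8.86 in FeO, so that the 3 pools did not overlap.

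Among the actin-binding proteins of the thin filament, Cnn1 encodes calponin, which slows the myosin motor. It gave -0.77 on array 1 and -0.10 on array 2, with a mean of -0.43, 1.35-fold lower in FeD, and -0.42 and 0.40 in FeO, with a mean of -0.01. Its signals were low, from 95 to 189 intensity units uncorrected, and with the processed signals of the scanner software its FeD ratio was -1.31, which passes the size criterion. The share of all genes that pass it with those signals is not given. Tagln, transgelin, gave -0.51 and -0.05 in FeD, with a mean of -0.28, and -0.21 and 0.46 in FeO, with a mean of 0.12. Smtn, smoothelin, found in contractile smooth muscle, stayed within its spread between arrays in FeO and close to 0 in FeD, with -0.05 and -0.09 in FeD and -0.16 and 0.24 in FeO. In FeD its probe 1 gave -0.12 and 0.00 and its probe 2 gave 0.02 and -0.18.

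Of the intermediate filament proteins, Des encodes desmin, which links the contractile units of muscle cells. Des gave -0.90 on array 1 and 0.06 on array 2, with a mean of -0.42, and -0.20 and 0.68 in FeO, with a mean of 0.24, the highest FeO mean of the list. The distance of each array from these means was 0.48 and 0.44, so that neither difference exceeded the spread between arrays. Synm, synemin, which joins filaments of desmin and vimentin, gave -0.18 and -0.11 in FeD and -0.02 and -0.01 in FeO from the probes that passed. Its second probe did not pass in FeD. In FeO its first probe gave -0.13 and -0.06, and its second gave 0.08 and 0.04.

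The order of the labels moved with these ratios. Myh11, Des, Cnn1 and Tagln were lower where the diet pool carried Cy5 than where it carried Cy3, by 0.23 to 0.48 either side of the mean in FeD and by 0.34 to 0.44 in FeO, and Acta2 went the other way. The part of the dye in each ratio was not tested. Differences between pools in the same dye, taken across the swapped arrays of a comparison, were added after this was seen, and their mean equals the mean ratio. In FeD, Actg2 had -1.33 in Cy5 and -1.48 in Cy3, Mylk -0.66 and -0.56, and Myh11 -0.70 and -0.33. Des had -0.50 and -0.35, Cnn1 -0.48 and -0.39, and Tagln -0.35 and -0.21. Smtn had -0.12 and -0.01 and Synm -0.03 and -0.27, each with 1 value near 0, and probe 1 of Smtn alone had -0.21 and 0.10. Thus 8 of 9 members were lower than FeA in both dyes, where 24.6% of all genes were, and Acta2 was the exception with 0.08 and -0.12. In FeO, 2 members were lower in both dyes, Actg2 with -0.41 and -0.64 and Mylk with -0.41 and -0.30, where 23.9% of all genes were, and 1 was higher in both, Des with 0.17 and 0.31, where 29.1% were.

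Read over all channels, 4 members (Actg2, Myh11, Cnn1 and Mylk) had both FeD levels below all 4 FeA levels, where 8.75% of genes did. In FeO, 2 members (Actg2 and Mylk) had both levels below all FeA levels, where 11.8% of genes did.

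**Figure D3:**
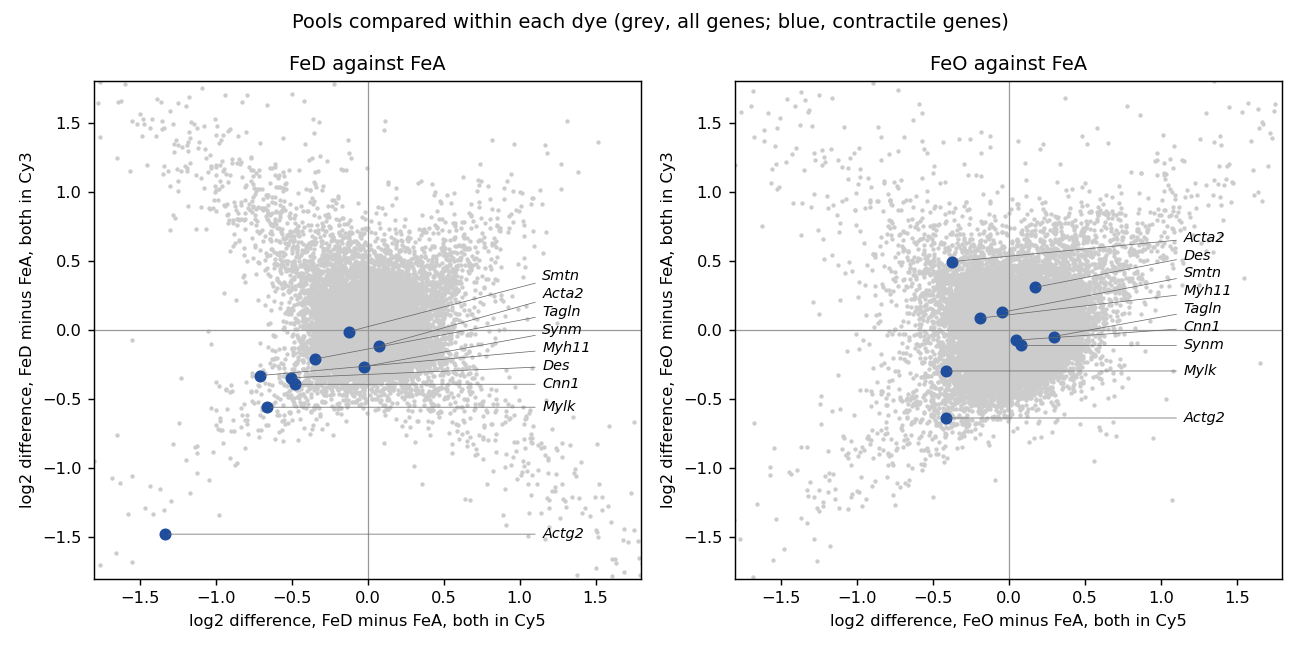
Log2 difference of the FeD pool (left) or the FeO pool (right) from the FeA pool with both pools read in Cy5 (horizontal) and both in Cy3 (vertical), for all genes that passed the filter (grey, axes limited to the central range) and the 9 contractile genes (blue). In FeD 8 of the 9 members lie below 0 on both axes, and in FeO Actg2 and Mylk do.

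The FeD and FeO means can be set side by side, with the reminder that the same FeA pool stands under both. Actg2 had -1.41 in FeD and -0.53 in FeO, and Mylk had -0.61 and -0.36. Myh11 had -0.52 and -0.05, Cnn1 -0.43 and -0.01, Des -0.42 and 0.24, and Tagln -0.28 and 0.12. Every one of these 6 genes was lower in FeD than in FeO by this reading, and the difference was not tested.

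Other genes of the contractile machinery had an FeD median nearer to 0. The wider list of contractile and cytoskeletal genes had 26 of its 34 genes on the array pass in FeD, with a median of -0.02, and 8 were lower on both arrays, 7 higher and 11 of opposite sign. Tpm2, beta tropomyosin, was the lowest, with -1.01 and -0.48 in FeD (mean -0.75) and -0.57 and 0.15 in FeO (mean -0.21). Myl9, a regulatory light chain of myosin, gave -0.59 and 0.00 in FeD, and Tpm1, alpha tropomyosin, gave -0.54 and -0.04. Flna, filamin A, was on the other side, with 0.07 and 0.57. In FeO the median of 27 genes was 0.12, with 2 lower on both arrays and 12 higher. Aoc3, an amine oxidase of vessel muscle and fat cells, gave 1.51 and 1.25 in FeO and was the only gene of this list called in either comparison.

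Among 7 measured transcriptional regulators the median was 0.02 in FeD and -0.05 in FeO. Srf, serum response factor, gave 0.05 and -0.15 in FeD and 0.04 and 0.05 in FeO, and Myocd, myocardin, gave 0.16 and -0.12 in FeD and 0.04 and -0.14 in FeO. Mkl1, a myocardin-related coactivator, gave 0.14 and 0.37 in FeD and -0.04 and -0.07 in FeO. Mef2c, a muscle transcription factor, was the highest in FeD with 0.68 and 0.69, and had -0.05 on each FeO array. Receptors that drive smooth muscle were mostly dim, with 4 of 10 genes passing in FeD and 6 in FeO. On both arrays 1 receptor was lower and 1 higher in FeD, and 3 were lower and 2 higher in FeO, where the median was -0.09. Tacr2, a tachykinin receptor, gave -0.18 and -0.36 in FeD and -0.39 and -0.42 in FeO. The higher ones in FeO were Agtr1a, with 0.69 and 0.22, and Ednrb, with 0.55 and 0.26. In FeD these gave 0.37 and -0.05, and 0.00 and 0.09. Chrm3, the muscarinic receptor of smooth muscle and acinar cells, had opposite signs, with 0.40 and -0.65 in FeD and 0.10 and -1.01 in FeO. No gene of the regulator and receptor lists was called. The FeD median of the regulators turned to -0.01 without the filter on dim probes, and that of the receptors, -0.04, turned to 0.07 with processed signals.

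**Figure D4:**
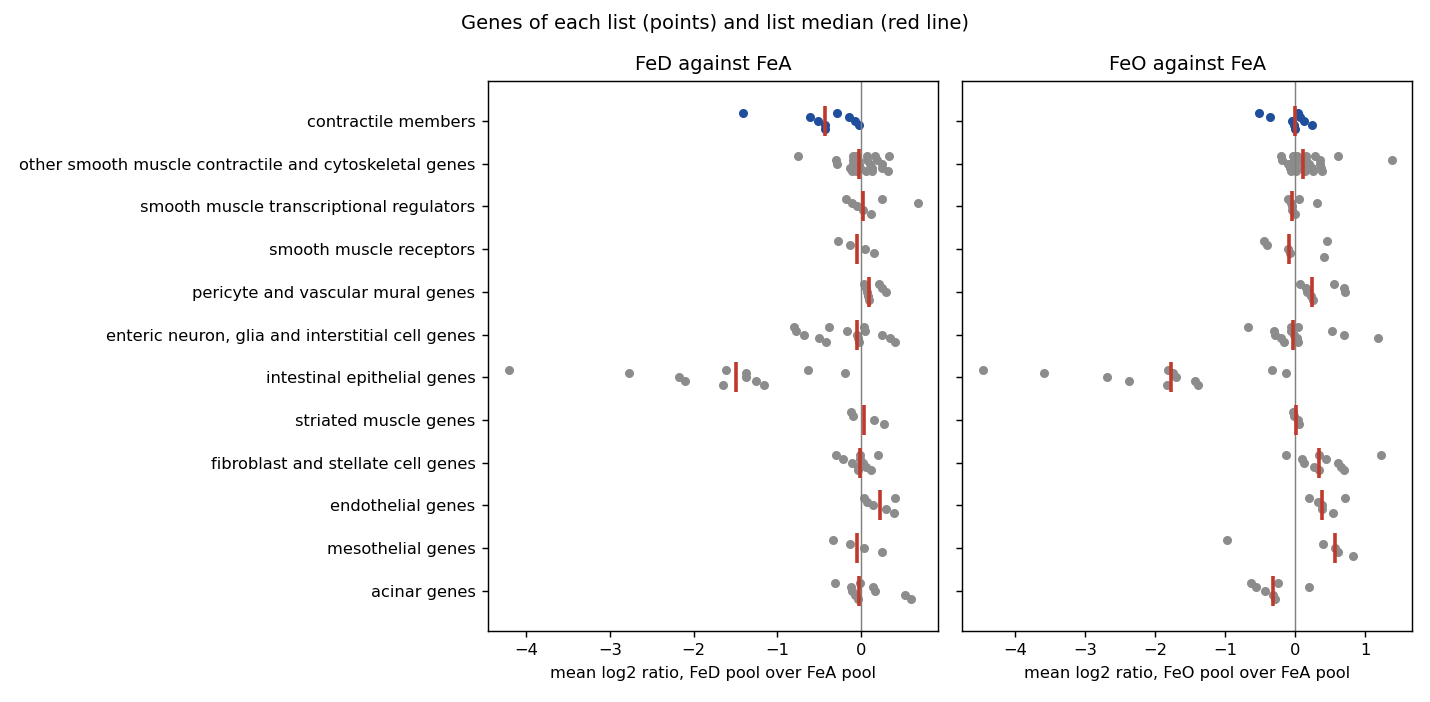
Mean log2 ratio of each gene (points) over the FeA pool, by list, for the FeD pool (left) and the FeO pool (right), with the contractile members in blue and each list's median as a red line. The members have a median of -0.42 in FeD and -0.01 in FeO, and the intestinal epithelial genes lie far below 0 in both.

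Markers of other cells that a dissected pancreas could hold differed as well. Of 12 intestinal epithelial genes, 11 were lower on both arrays and 10 were called lower in each comparison, with a median of -1.49 in FeD and -1.78 in FeO. With the processed signals of the scanner software these medians were -2.78 and -3.54. Their summed channel level over 15 probes ranged from 9251 to 9516 in FeA, from 2700 to 2897 in FeD and from 2001 to 2333 in FeO, and 3 genes in FeD (Agr2, Cdhr5 and Fabp2) and 5 in FeO (the same 3, Cdh17 and Fabp1) were not well above background in any channel. The summed level of the 14 contractile probes, in which Actg2 weighs most, ranged from 13165 to 15665 in FeA, from 7603 to 8174 in FeD and from 10927 to 12561 in FeO. By these sums the intestinal list was lower in FeO than in FeD, and the contractile list was lower in FeD than in FeO. Like the rest of the intestinal list, Fabp2, Muc2 and Vil1 had means below 0 in both comparisons, but unlike the rest they lay higher in FeO than in FeD. Their mean ratios were -2.78, -0.63 and -0.19 in FeD and -2.69, -0.33 and -0.13 in FeO. The part of other tissue in the Actg2 ratio was not tested.

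Genes of enteric neurons, glia and interstitial cells had a median of -0.04 in each comparison, with 7 of 15 lower and 5 higher on both arrays in FeD, and 6 of 14 lower and 4 higher in FeO. The neuropeptide genes Gal and Calca had FeD means of -0.77 and -0.68 and FeO means of -0.67 and -0.30. Vip, another neuropeptide gene, was well above background in the FeA pool and not in the FeD pool. Kit, which marks interstitial pacemaker cells and mast cells, was higher on every array, with means of 0.41 and 0.52, as was Ret, a receptor of enteric neurons, with 0.35 and 0.69. S100b, a glial marker, had means of -0.04 in FeD and 1.17 in FeO, where it was called higher. The summed level of this list was 5890 to 6838 in FeA, 7426 to 8979 in FeD and 7524 to 8189 in FeO, and 2 genes in FeD (Cartpt and Vip) and 1 in FeO (Cartpt) were not well above background in any channel.

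Vessel wall genes had medians above 0 in both comparisons, and none was called. Of 8 pericyte and vascular mural genes, 6 were higher on both FeD arrays and 7 on both FeO arrays, none was lower on both, and the medians were 0.10 and 0.24. Pdgfrb, the platelet-derived growth factor receptor of mural cells, gave 0.18 and 0.43 in FeD and 0.48 and 0.63 in FeO, and Rgs5, a pericyte marker, gave 0.08 and 0.10 in FeD and 0.03 and 0.11 in FeO. The mural sum was 1783 to 1923 in FeA, 2009 to 2073 in FeD and 2298 to 2464 in FeO. Endothelial genes had medians of 0.22 and 0.38, and 4 of 6 genes in FeD and 6 of 6 in FeO were higher on both arrays.

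Fibroblast and stellate cell genes had a median of -0.01 in FeD and 0.34 in FeO, where 9 of 11 were higher on both arrays. Postn, periostin, gave -0.07 and -0.14 in FeD and 0.06 and 0.14 in FeO. Fn1, fibronectin, had the highest FeO mean of this list, with 1.38 and 1.06, and was its 1 gene called higher in FeO, where 0.615% of all genes were. In FeD it gave 0.14 and -0.02. Of the mesothelial genes, 2 of 4 were lower and 1 higher on both FeD arrays, 4 of 5 were higher and 1 lower on both FeO arrays, and the medians were -0.05 and 0.56. Krt19, a keratin of mesothelium and ducts, was the lower one in FeO, with -1.27 and -0.69. Upk1b, a uroplakin of mesothelium and urothelium, gave -0.16 and -0.09 in FeD and 0.69 and 0.43 in FeO. Striated muscle genes were mostly dim, with 4 of 15 passing and medians of 0.03 and 0.01. Of the pancreatic acinar genes, 10 of 10 passed the filter in FeD, with a median of -0.03. In FeO the median of 7 genes was -0.32, or -0.05 with median centring in place of loess, and Cela2a, Cpa1 and Prss1 had no FeO value. Cela1, a pancreatic elastase, gave 0.68 and 0.39 in FeD and -0.20 and -0.30 in FeO. The FeD medians of the enteric and mesothelial lists changed sign with another filter on dim probes, that of the acinar list with the brightest probe, and the FeO median of the striated list with other background corrections. The part of these cell types in the member ratios was not tested.

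The genes nearest to the median profile of the members were sought among 8792 genes well above background in every channel, by Euclidean distance over the 4 array ratios. The member profile was -0.64, -0.11, -0.21 and 0.24 on arrays 1 to 4. The nearest were Wnk2 (distance 0.13), Smo (0.14), Spry2 (0.16), Morf4l2 (0.16), Tpm1 (0.17), Lrrc8d (0.18), Lyrm2 (0.20) and Aig1 (0.20). Tpm1 is itself a contractile filament gene, and its ratios were -0.54, -0.04, -0.25 and 0.13. Over 4 arrays that share 1 FeA pool and a common dye order in each comparison, such likeness is a description.

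None of the same 8792 genes came as close to Actg2, whose FeD ratio was among the lowest of all genes. Members and genes not well above background in every channel, such as Fabp1 and Fabp2, were not searched, so nearer genes may have been missed. In a search chosen after its values were seen, the nearest were Akr1b8, an aldo-keto reductase, at 0.82 and Trib3, a stress-induced pseudokinase, at 0.86. Akr1b8 gave -0.87, -0.98, -0.56 and -0.57 on arrays 1 to 4, less negative than Actg2 in FeD. They were followed by Calml4 (0.90), Tnnt2 (0.91), Gas6 (0.91), Cyp3a9 (0.97), Pdia5 (0.97) and Gal (1.04). Tnnt2, cardiac troponin T, gave -1.03, -0.54, -0.59 and -0.36.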

How the data were processed

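Total RNA of 6 rats per diet, pooled, was labelled and hybridised on two-colour Agilent arrays with the dyes exchanged. The intensity values were deposited by the authors as the output of Agilent Feature Extraction (version 10.1.1.1), and the median signals of spots and of their local background carry no correction. The authors' deposited tables also hold log2 fold changes, p-values, q-values and a keep tag, which were not used. Their symbols named 22949 of 30367 probes, and 18004 probes matched RefSeq by accession.

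Median signals ranged from 115 to 222.5 intensity units per channel over backgrounds of 50 to 87, and 61.9% to 71.5% of 42877 spots per channel were well above background. The number of arrays limits the precision. In R 4.3.3 with limma 3.58.1, normexp (offset 50) was followed by loess within arrays, with control spots at weight 0. Outlier spots (722 to 938 per array) were left out, spots of a probe were averaged, and the swapped array was turned. The scanner's background criterion had to hold for over 50% of a probe's spots. The steps were tested on simulated data. Counts were made with pandas 2.3.3 and numpy 2.4.6, and plots with matplotlib 3.10.9, under Python 3.11.15. No test of the diets was made, since each diet is 1 pool. The methods' t-test was rerun over all probes only to describe it.

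The members and the lists were chosen with earlier results of these data known. Named were all members, up to 6 genes per list with the lowest and highest mean over both comparisons or the list's defining genes, and the 8 genes nearest to the members. Genes beyond these are said to be chosen later. The alternatives were other background corrections, processed signals, other normalizations, filters, probe summaries and size criteria, and each array left out.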

Additional observations from a re-analysis of the deposited data

Results flagged for a closer look

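Of 111 members and list genes with a value on all 4 arrays, 9 lay on one side of FeA on both FeD arrays and on the other side on both FeO arrays. None of the 9 was a contractile member, and none of these differences was tested. The share of all genes with this pattern is not given, so the count is not read as an excess. Within a comparison the arrays had opposite signs for 53.1% of all genes in FeD and 47.8% in FeO. Some values lay near 0, such as -0.05 on each FeO array for Mef2c. The FeO mean minus the FeD mean, on the log2 scale, was -0.78 for Cela1, -0.73 for Mef2c, -0.32 for Mkl1, 0.20 for Postn and 0.69 for Upk1b. The other 4 genes, outside the naming rule and chosen after their values were seen, had differences of 0.63 (Col1a2), 0.35 (Fhl1), 0.27 (Mrvi1) and 0.13 (Pdlim5).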

How the results depend on the processing

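With either array left out, the member median ranged from -0.64 to -0.11 in FeD and from -0.21 to 0.24 in FeO, and the number of members called was 1 in FeD and 0 in FeO each time. The FeD count was 3 with a size criterion of 0.5 (0.935% of all genes lower) and 0 with a criterion of 2. It was 2 with processed signals, where Cnn1 joined Actg2 and for which no share of all genes is given. It was 0 without Actg2, an alternative added later. The FeO count was 1 with a criterion of 0.5 (1.99% of all genes lower). The FeO median, near 0, was 0.02 without background subtraction, 0.01 with an offset of 0 or without the filter, and 0.02 without Actg2. Of 99 member ratios recomputed per comparison, 93 in FeD and 89 in FeO moved by less than the standard deviation between the arrays. Part of this was fixed in advance. The Aquantile and same-dye values equal the main ratio, and leaving an array out always moves it by less than that standard deviation. The sign changed for 2 values in FeD (Acta2 and Des), both with an array left out, and for 10 in FeO, of which 6 were with an array left out and the other 4 concerned Cnn1, Smtn and Synm. Over the normalizations, filters and probe summaries Actg2 ranged from -1.48 to -1.39 in FeD and from -0.55 to -0.43 in FeO. The ratio of Mylk ranged from -0.94 to -0.57 in FeD and from -0.55 to -0.32 in FeO. With processed signals the FeO medians of the mesothelial, endothelial and mural lists were 0.91, 0.60 and 0.40. Over all probes, the methods' t-test passed 1090 of 17516 probes in FeD and 1440 of 18314 in FeO, and after Benjamini-Hochberg adjustment it passed 0 in both. That test used the methods' p-value threshold and compares pools by technical error only. It takes the channels of the pools as unpaired, whereas the ratio within an array is the paired form. With 1 pool per diet, neither form measures variation among rats. Dim probes such as those of Cnn1 and Lmod1 are limited by signal over background.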
